A study of Mus musculus with 10 samples.

Results

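The 9 genes described here encode the transcription factors that define satellite cells, the stem cells of skeletal muscle, and drive their differentiation into myofibers. They were taken as a list of names, with no threshold on a measured value, though earlier results of these data were known when the list was drawn up. They are the paired box genes *Pax7* and *Pax3*, the myogenic regulatory factors *Myf5*, *Myod1*, *Myog* and *Myf6*, and the MEF2 genes *Mef2a*, *Mef2c* and *Mef2d*. All 9 were found among the 25700 genes counted. RNA came from the tibialis anterior (TA) muscle of 10 male C57BL/6 mice aged 12 weeks, taken on day 6 after an injection of cardiotoxin (CTX), a toxin that destroys myofibers and sets off their regeneration. The 5 mice of the control group, Pax7Cre, carry a Cre recombinase placed in the *Pax7* locus and are labelled wild type for miR-501. The 5 mice of the other group, miR-501KO, are labelled miR-501 -/-, and the series describes them as Pax7Cre miR-501fl/Y: the same Cre together with a floxed miR-501 on the X chromosome.

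Cre in both groups is not inducible, so deletion follows *Pax7* expression from development onwards, and cells outside the *Pax7* lineage keep miR-501. Reads on *Pax7* in both groups come from mice with an engineered *Pax7* locus. Whole muscle was sequenced, which holds myofibers, satellite cells, macrophages, endothelial cells and fibroblast-like cells, so fewer cells of a type and less RNA per cell cannot be told apart. The deletion itself cannot be read from these gene counts and was not checked here.

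Satellite cells rest under the myofiber sheath and express *Pax7*. After injury they divide as myoblasts with *Myf5* and *Myod1*, then leave the cell cycle, switch on *Myog* and fuse, while *Myf6* is best known from mature myofibers. The myogenic regulatory factors bind the E-box (CANNTG) as dimers with E proteins, Id proteins block this by capturing the E proteins, and MEF2 proteins act beside them on muscle genes.

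The miRNA deleted in the miR-501KO mice is shown because its seed, bases 2 to 8 from the 5′ end and in capitals, defines the target site looked for in the 9 genes. The sequence is from RefSeq on GRCm38.p6, where the mature miRNA lies at chrX:7241270-7241291 on the minus strand.
miR-501-3p: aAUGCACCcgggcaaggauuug
The DNA complement of the seed, GGTGCAT, was present in an annotated 3′ untranslated region (UTR) of 2 of the 9 genes, *Mef2a* and *Mef2d*. Among the 14074 tested genes with such an annotation, 1159 hold it, or 8.24%. These are the matches, with the complement of the seed in capitals.
Mef2a: tattgcaaaggGGTGCATgggaaagggct
Mef2d: ggagagggttgGGTGCATcctataggcca
The *Mef2a* match lies at chr7:67234325-67234331 on the minus strand of GRCm38, 537 bases into the 3705-base 3′ UTR of transcript Mef2a-208, and is present in 5 annotated transcripts. The *Mef2d* match lies at chr3:88168572-88168578 on the plus strand, 219 bases into the 1577-base 3′ UTR of Mef2d-204, the only annotated *Mef2d* transcript that holds it. A match describes the letters of the sequence and is no measurement of binding. Neither gene differed detectably between the genotypes, as described below.

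Between 18609222 and 24753258 reads were counted per mouse, with medians of 21438248 in Pax7Cre and 23534067 in miR-501KO mice. Counts were turned into normalized counts (CPM), which adjust for library size with edgeR's TMM factors, and the quasi-likelihood test of edgeR set the genotypes against each other on the 14410 genes that passed the filter on low counts. All 9 genes passed. No gene was called at an adjusted p (Benjamini-Hochberg) under 0.05, or 0% of those tested. Before adjustment, 151 genes, or 1.05%, had a p under 0.05, of which 55 (0.382%) were higher and 96 (0.666%) lower in miR-501KO mice. When 1 mouse was left out, these numbers rose most without Pax7Cre mouse 2 (267 higher, 186 lower) and mouse 4 (228 higher, 242 lower). Pax7Cre mice 2 and 4 stood at opposite ends for myofiber genes: 25 mature fiber markers summed to 62363 CPM in mouse 2 and 24693 CPM in mouse 4, against 30570.0 to 47820.4 CPM in the 8 other mice. No library name or label gives a sequencing batch.

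None of the 9 transcription factor genes differed between Pax7Cre and miR-501KO muscle at an unadjusted p under 0.05, beside 1.05% of all genes tested. At so low a share over all genes, the lack of such a gene does not set these 9 apart. Log2 fold changes, miR-501KO over Pax7Cre, were positive for 7 genes and negative for *Myf6* and *Mef2a*, and lay between −0.04 and 0.31. Their median size without regard to sign was 0.039, beside 0.055 over all genes tested. The direction changed for all but *Pax3* and *Mef2c* when some 1 mouse was left out. The CPM of the 2 genotypes overlapped for every one of the 9 genes, as for all but 0.139% of all genes tested. All adjusted p-values from edgeR for the 9 genes were 1.00.

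**Figure D1:**
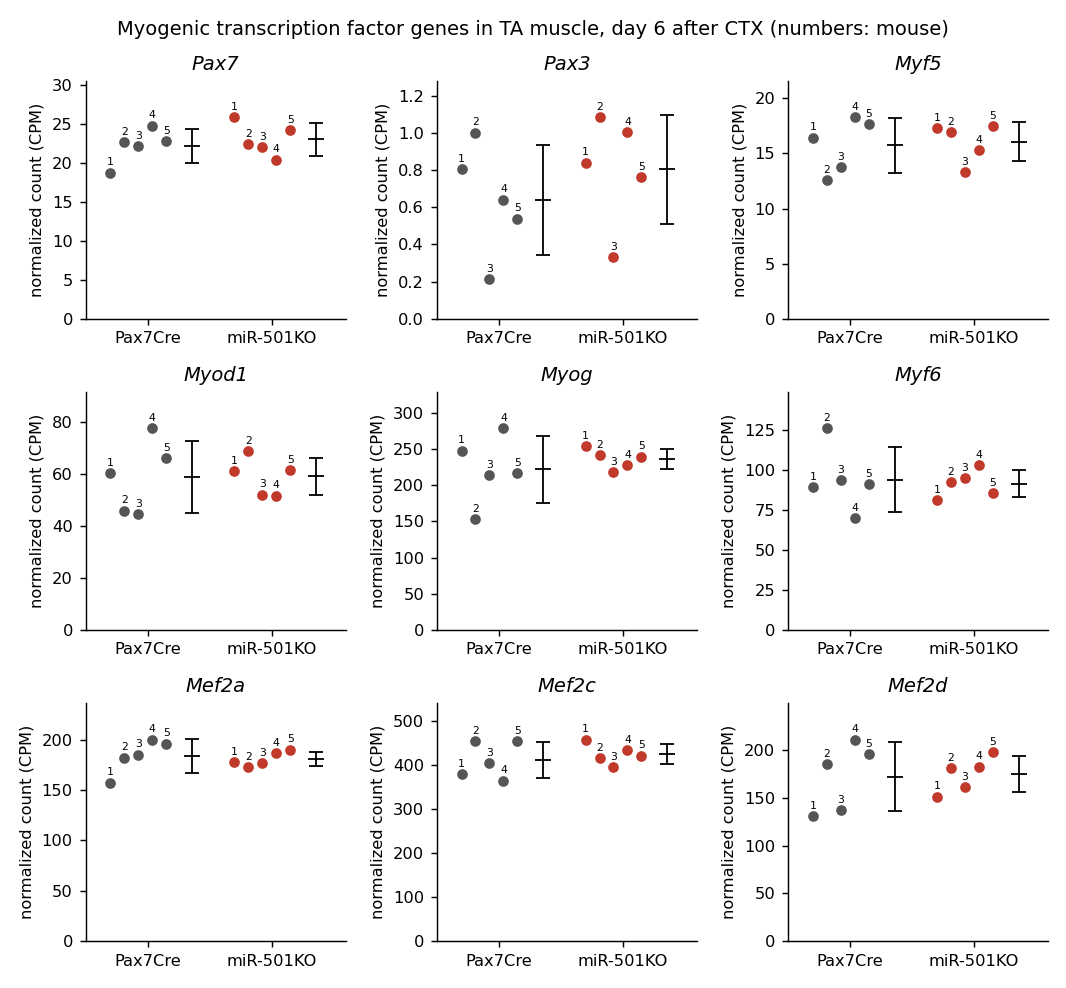
Normalized counts (CPM, vertical axes from 0) of the 9 genes in each Pax7Cre (grey) and miR-501KO (red) mouse, numbered as in the labels, with the mean and SD of 5 mice beside the points. The genotypes overlap in every panel, and Pax7Cre mouse 4 is highest of all mice for *Myf5*, *Myod1*, *Myog*, *Mef2a* and *Mef2d*.

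*Pax7* marks satellite cells and is needed to maintain them. It lies at chr4:139737062-139833528 on the minus strand of GRCm38. In Pax7Cre mice 1 to 5, *Pax7* had 18.7, 22.6, 22.1, 24.7 and 22.7 CPM, and in miR-501KO mice 1 to 5 it had 25.8, 22.4, 22.0, 20.4 and 24.2 CPM. Pax7Cre mouse 1 was the lowest of the 10 mice, and 1 miR-501KO mouse exceeded all controls. The means were 22.2 ± 2.18 CPM (SD, n = 5) and 23.0 ± 2.09 CPM (SD, n = 5), on 385 to 645 reads per mouse. The log2 fold change was 0.05 with a 95% interval of −0.14 to 0.25, and the exact permutation test gave p = 0.587. On a linear scale the interval runs from −9.54% to 18.6%, the narrowest after that of *Mef2a*.

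*Pax3*, the paralog of *Pax7* best known from embryonic muscle precursors, was close to the limit of counting. It had 4 to 23 reads per mouse and 157 reads in all. The level was 0.640 ± 0.297 CPM (SD, n = 5) in Pax7Cre and 0.805 ± 0.294 CPM (SD, n = 5) in miR-501KO mice. The interval of its log2 fold change of 0.31, from −0.50 to 1.12, was the widest of the 9 genes (exact permutation p = 0.413). Counting alone gives a coefficient of variation (CV) of 27.1% and 23.7% at these reads, beside observed values of 46.4% and 36.4%. *Pax7* made up 97.0% of the reads per exon length of the pair.

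*Myf5* and *Myod1* are the factors of the dividing myoblast. *Myf5* lies at chr10:107482908-107486134, next to *Myf6* at chr10:107492853-107494737, both on the minus strand, and *Myod1* at chr7:46376474-46379099 on the plus strand. *Myf5* had 16.4, 12.6, 13.7, 18.3 and 17.7 CPM in Pax7Cre mice 1 to 5, and 17.3, 16.9, 13.3, 15.3 and 17.5 CPM in miR-501KO mice 1 to 5. *Myod1* had 60.4, 46.0, 44.5, 77.7 and 66.3 CPM in Pax7Cre mice and 61.2, 68.8, 52.2, 51.7 and 61.7 CPM in miR-501KO mice, in the same order. Both genes were low in Pax7Cre mice 2 and 3 and high in mice 4 and 5 of that group, and every miR-501KO value fell inside the control range. The *Myf5* means were 15.7 ± 2.49 and 16.1 ± 1.78 CPM (SD, n = 5 each; log2 fold change 0.03, interval −0.23 to 0.28, exact permutation p = 0.817). The *Myod1* means of 59.0 ± 14.0 and 59.1 ± 7.20 CPM (SD, n = 5 each) were the closest of any of the 9 genes on the log2 scale, with an interval of −0.32 to 0.32 (exact permutation p = 0.992).

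*Myog* encodes myogenin, which drives myoblasts into terminal differentiation. It had 248, 153, 214, 279 and 217 CPM in Pax7Cre mice 1 to 5 and 255, 242, 219, 228 and 239.7 CPM in miR-501KO mice 1 to 5. The control group held both the lowest mouse, number 2, and the highest, number 4, and the miR-501KO mice lay between them. The means were 222 ± 46.8 and 237 ± 13.7 CPM (SD, n = 5 each), with a log2 fold change of 0.09, an interval of −0.20 to 0.38 and an exact permutation p of 0.563. The interval in percent runs from −12.7% to 30.1%. With 2899 to 6951 reads per mouse, counting accounts for a CV of 1.45% in Pax7Cre mice, beside an observed CV of 21.1%.

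The *Myog* promoter is shown because it holds letters of the motifs known for the myogenic regulatory factors and for MEF2 close to the start. The window is chr1:134289754-134290053 on the plus strand, from RefSeq on GRCm38.p6, and covers 250 bases before and 50 after the annotated start. Capitals mark, from left to right, an E-box, the letters CTANNNNTA of a MEF2 motif and a second E-box.
Myog promoter: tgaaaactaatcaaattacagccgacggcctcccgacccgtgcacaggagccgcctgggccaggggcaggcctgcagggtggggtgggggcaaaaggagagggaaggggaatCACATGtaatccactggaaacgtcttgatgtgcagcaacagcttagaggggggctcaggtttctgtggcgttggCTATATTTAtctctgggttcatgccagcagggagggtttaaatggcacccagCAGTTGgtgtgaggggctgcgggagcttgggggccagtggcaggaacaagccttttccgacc
The E-boxes CACATG and CAGTTG begin 138 and 12 bases before the RefSeq start, and CTATATTTA begins 64 bases before it. The GENCODE annotation, used for the loci given here, starts *Myog* earlier, at chr1:134289989, so that CAGTTG lies inside the gene there. Both strands were searched. Of 32841 promoter windows of this length, 72.3% hold CANNTG and 21.0% hold CTANNNNTA, so neither is rare, and the second motif was chosen with this window in view. Windows were given for 6 of the 9 genes. Those of *Pax7* and *Mef2d* held neither motif, and those of *Mef2a* and *Myf5* held CTANNNNTA but no CANNTG. The *Pax7* window, chr4:139832919-139833218, lies inside the GENCODE locus of *Pax7* and does not reach its outer end. Of 3 *Mef2c* windows, 1 held both motifs (CAGATG and CTAACGATA), 1 held a pair of E-boxes (CAAGTG and CATATG) and 1 held neither.

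*Myf6*, the regulatory factor of mature myofibers, was at its extremes in Pax7Cre mice 2 and 4. It had 88.9, 126, 93.7, 69.9 and 90.8 CPM in Pax7Cre mice 1 to 5 and 81.0, 92.4, 94.9, 103 and 85.5 CPM in miR-501KO mice 1 to 5. Its highest value was in Pax7Cre mouse 2, where *Myog* and *Myf5* were lowest, and its lowest in Pax7Cre mouse 4, where *Myog*, *Myod1* and *Myf5* were highest. The means were 93.8 ± 20.2 and 91.3 ± 8.39 CPM (SD, n = 5 each; log2 fold change −0.04, interval −0.32 to 0.24, exact permutation p = 0.825).

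The MEF2 proteins are MADS-box factors that act with the myogenic regulatory factors. *Mef2a* (chr7:67231163-67372858, minus strand) ranged from 157 to 200.1 CPM in Pax7Cre and from 173 to 190.1 CPM in miR-501KO mice, with a log2 fold change of −0.03 and an interval of −0.20 to 0.15 (exact permutation p = 0.722). *Mef2c* (chr13:83504034-83667080, plus strand) ranged from 365 to 456 CPM and from 396 to 459 CPM, with a log2 fold change of 0.05 and an interval of −0.15 to 0.25 (exact permutation p = 0.556). *Mef2d* (chr3:88142372-88172086, plus strand), whose muscle isoform promotes late differentiation, ranged from 131 to 211 CPM and from 151 to 198 CPM, with a log2 fold change of 0.02 and an interval of −0.27 to 0.32 (exact permutation p = 0.873). The seed matches thus sit in the gene with the narrowest interval of the 9 and in 1 with a wider interval, both including 0. Isoforms cannot be separated in gene counts. *Mef2a* shares 302 exonic bases with *Lysmd4* on the opposite strand, and *Mef2d* shares 531 with the antisense gene *1700113A16Rik*. The strand setting of the counting is not given in the sources used here, so reads on these stretches are uncertain.

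**Figure D2:**
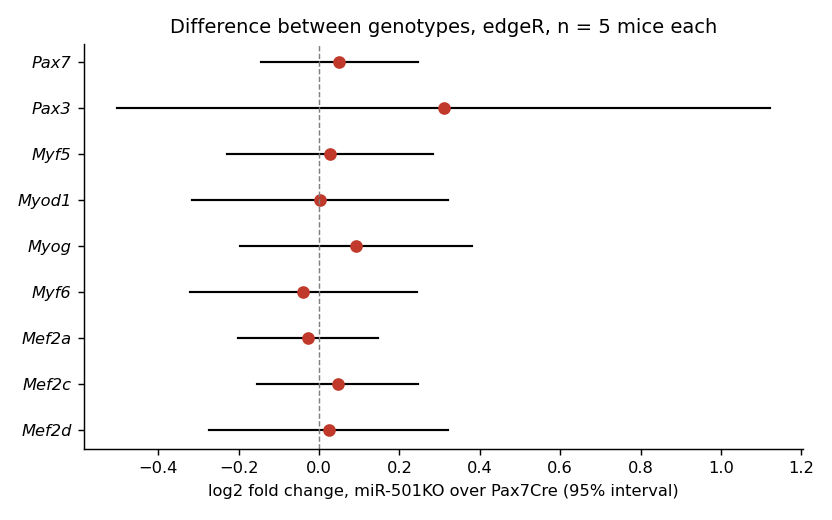
Log2 fold change of each gene, miR-501KO over Pax7Cre, as a point with its 95% interval as a line, from edgeR with 5 mice per genotype. Every interval includes 0, and that of *Pax3* is the widest.

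Levels were compared between genes as CPM per kilobase of annotated exon over all 10 mice. *Myog* was highest at 153 ± 22.4 (SD, n = 10), followed by *Myf6* at 73.3 ± 11.6 and *Myod1* at 31.7 ± 5.64. *Mef2d* (29.0 ± 4.54), *Mef2c* (26.6 ± 2.07) and *Mef2a* (12.4 ± 0.840) came next, then *Myf5* (7.63 ± 0.983), *Pax7* (3.85 ± 0.351) and *Pax3* (0.117 ± 0.0471). Neighbours in this order had ranges that did not overlap, with the exceptions of *Myod1* with *Mef2d* and *Mef2d* with *Mef2c*. *Myod1* exceeded *Mef2d* in 8 of 10 mice, and *Mef2d* exceeded *Mef2c* in 7 of 10, so these neighbours were not separated from each other. Of the summed level of the 4 myogenic regulatory factors, *Myog* held 57.4%, *Myf6* 27.9%, *Myod1* 11.9% and *Myf5* 2.86%. Exon lengths join the exons of all transcripts, 15715 bases for *Mef2c*, which lowers the level per length of genes with many or long transcripts.

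**Figure D3:**
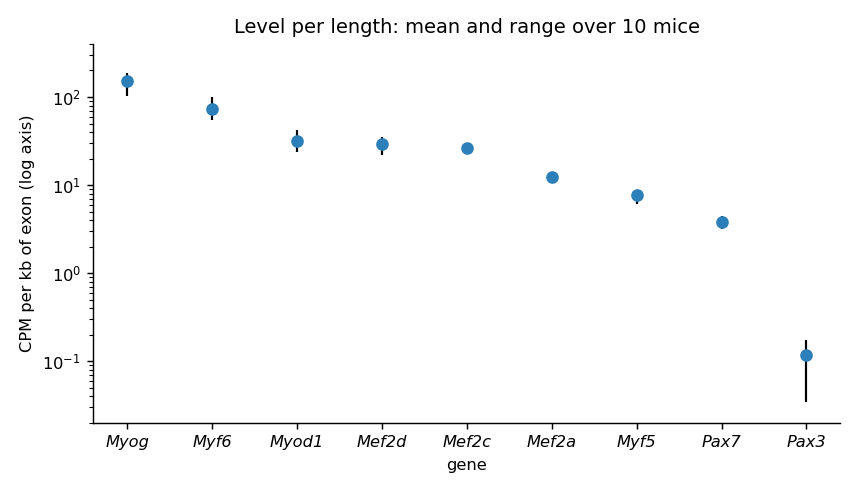
Mean (point) and range (line) over 10 mice of the level per length of the 9 genes, in CPM per kilobase of exon on a log axis. *Myog* is highest and *Pax3* lowest, and the range of *Mef2d* overlaps with those of *Myod1* and *Mef2c*.

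For each of the 9 genes the difference between the genotype means was smaller than the SD among Pax7Cre mice. Pax7Cre mouse 4 had the highest value of all 10 mice for 5 genes and the lowest for *Myf6* and *Mef2c*. Pax7Cre mouse 2 had the highest *Myf6* and the lowest *Myf5* and *Myog*. Pax7Cre mouse 1 had the lowest *Pax7*, *Mef2a* and *Mef2d*, and Pax7Cre mouse 3 the lowest *Pax3* and *Myod1*. Mouse 2 was also the mouse with the highest mature fiber sum and the lowest sum of 15 cell division markers (377 CPM), and mouse 4 had the lowest mature fiber sum and the highest cell division sum (685 CPM). The other mice lay between 516 and 646 CPM for cell division. The sum of 12 endothelial markers was likewise highest in mouse 2, at 1140 CPM, and lowest in mouse 4, at 869 CPM. The part of these markers in the order of the transcription factor genes was not tested. Over the 10 mice, which share a tissue and a day, Pearson's r of log2 CPM was −0.92 between *Myog* and *Myf6*, and −0.62 without Pax7Cre mice 2 and 4, the 2 farthest from the median of *Myog*. It was −0.76 between *Myod1* and *Myf6* and −0.79 between *Myf5* and *Myf6*, and −0.48 and −0.58 without Pax7Cre mice 2 and 4. Between *Myf5* and *Myod1* it was 0.90, and 0.86 without the same mice.

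**Figure D4:**
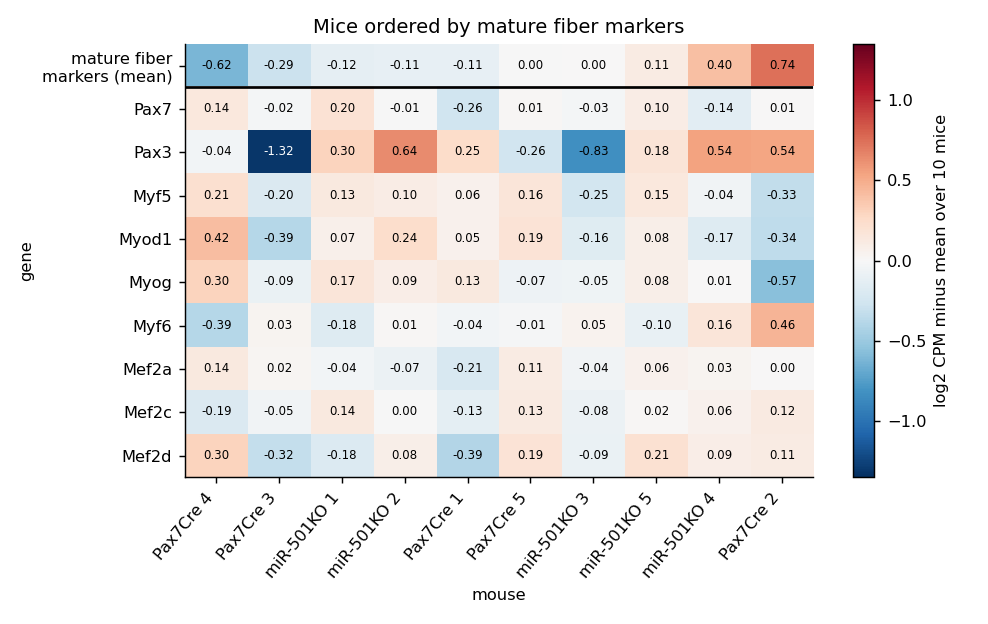
Log2 CPM of each of the 9 genes (rows) minus its mean over 10 mice, in mice (columns) ordered by their mature fiber markers, with red above and blue below the mean. The mice at either end are both Pax7Cre, mouse 4 and mouse 2, with *Myf6* lowest in the first and highest in the second.

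Ratios of reads within a mouse do not depend on the scaling between libraries. *Myf6* had 0.458 ± 0.217 reads per *Myog* read in Pax7Cre mice (SD, n = 5; range 0.251 to 0.823) and 0.388 ± 0.0544 in miR-501KO mice (SD, n = 5; range 0.318 to 0.450). The value of 0.823 was that of Pax7Cre mouse 2, and the other Pax7Cre mice lay between 0.251 and 0.439, so the higher control mean rests on 1 mouse. *Myog* had 10.1 ± 2.40 reads per *Pax7* read in Pax7Cre mice (range 6.76 to 13.2) and 10.3 ± 0.616 in miR-501KO mice (range 9.87 to 11.2). The miR-501KO range lay within the Pax7Cre range for both ratios. *Myod1* had 2.67 ± 0.598 reads per *Pax7* read in Pax7Cre and 2.58 ± 0.287 in miR-501KO mice, and *Myog* had 3.82 ± 0.640 and 4.03 ± 0.342 reads per *Myod1* read.

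The spread between mice of a genotype was wider in Pax7Cre mice for all 9 genes, taken as the SD of log2 CPM. This was so for 79.2% of all genes tested. The CV of *Myog* was 21.1% in Pax7Cre and 5.81% in miR-501KO mice, that of *Myf6* 21.5% and 9.19%, and that of *Pax7* 9.84% and 9.09%. Without Pax7Cre mouse 2, all 9 still had the larger SD in Pax7Cre mice, beside 69.6% of all genes. Without mice 2 and 4, 8 of 9 did, with *Myf6* the exception, beside 62.5% of all genes. No test was made of the spread.

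Factors that act with or against the 9 genes, and genes they activate, were read from lists of named genes. Of 24 genes for E proteins and myogenic cofactors, 23 were tested, 16 had a positive and 7 a negative log2 fold change, and 0 had an unadjusted p under 0.05, beside 1.05% of all genes tested. Their median log2 fold change was 0.03, beside −0.004 over all genes tested, and between −0.006 (without Pax7Cre mouse 1) and 0.06 (without Pax7Cre mouse 5) when 1 mouse was left out. The most abundant of them per length were the RNA-binding protein genes *Rbm24* (log2 fold change −0.06, interval −0.28 to 0.17) and *Rbm38* (0.05, interval −0.35 to 0.45) and *Srf*, the serum response factor (0.13, interval −0.12 to 0.37). Of 16 satellite cell markers, 14 were tested and 0 had an unadjusted p under 0.05, beside the 1.05% of all genes. Their median was 0.04, and it lay between −0.02 (without Pax7Cre mouse 2) and 0.11 (without Pax7Cre mouse 4) when 1 mouse was left out. The most abundant of these per length were *Des*, the intermediate filament of muscle cells, at 2814 ± 509 and 2992 ± 261 CPM (SD, n = 5 each), the syndecan gene *Sdc3* at 249 ± 42.4 and 253 ± 23.7 CPM, and the M-cadherin gene *Cdh15* at 78.2 ± 15.3 and 81.3 ± 4.20 CPM. The genotypes overlapped for all 3. *Des* was highest in Pax7Cre mouse 2, which also had the highest mature fiber sum. *Des* and *Notch3* are also in the list of smooth muscle and pericyte markers, so they are not particular to satellite cells. Of 28 early differentiation targets, 18 had a positive and 10 a negative log2 fold change, and 1, *Mybph*, was higher at an unadjusted p under 0.05, beside the 0.382% of all genes. Their median was 0.03, and between −0.06 (without Pax7Cre mouse 2) and 0.09 (without Pax7Cre mouse 4) when 1 mouse was left out. It was also negative, at −0.003, without miR-501KO mouse 1. The embryonic actin gene *Actc1* had 2964 ± 593 and 3367 ± 635 CPM (SD, n = 5 each), the embryonic myosin light chain gene *Myl4* had 1361 ± 237 and 1299 ± 72.5 CPM, and the slow troponin gene *Tnni1* had 677 ± 89.2 and 689 ± 91.7 CPM.

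Inhibitors of the myogenic factors held 3 of the 4 genes in these lists with an unadjusted p under 0.05, and none passed the adjusted threshold. Of 23 inhibitors, 17 had a negative and 6 a positive log2 fold change, with a median of −0.03, and between −0.07 (without Pax7Cre mouse 1) and −0.009 (without miR-501KO mouse 1) when 1 mouse was left out. At an unadjusted p under 0.05, 2 were lower and 1 was higher in miR-501KO mice, beside the 0.666% and 0.382% of all genes. The 2 lower genes were *Id1* and *Id3*, whose proteins bind E proteins and keep them from pairing with MyoD and its relatives.

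*Id3* had 48.1, 41.8, 45.9, 38.2 and 38.9 CPM in Pax7Cre mice 1 to 5 and 32.8, 37.9, 36.8, 37.6 and 34.6 CPM in miR-501KO mice 1 to 5. Every miR-501KO mouse was under every Pax7Cre mouse, although Pax7Cre mouse 4 and miR-501KO mouse 2 were close. Of the 14410 genes tested, 20, or 0.139%, had ranges that did not overlap. *Id3* was singled out by its unadjusted p, so this gap is no separate support. The means were 42.6 ± 4.34 and 35.9 ± 2.21 CPM (SD, n = 5 each), with a log2 fold change of −0.24 and an interval of −0.42 to −0.07. The unadjusted p from edgeR was 0.0103, its adjusted p was 1.00, and the exact permutation p of 0.00794 is the smallest that 5 mice against 5 allow.

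*Id1* had 24.8, 24.2, 23.8, 19.2 and 20.7 CPM in Pax7Cre mice 1 to 5 and 14.6, 16.2, 16.0, 23.6 and 14.6 CPM in miR-501KO mice 1 to 5. The exception among the miR-501KO mice was number 4, and the other 4 lay under all controls. The means were 22.5 ± 2.46 and 17.0 ± 3.76 CPM (SD, n = 5 each), with a log2 fold change of −0.41 and an interval of −0.70 to −0.12 (unadjusted p = 0.00906 and adjusted p = 1.00 from edgeR, exact permutation p = 0.0238). *Id2* gave 42.7 and 43.9 CPM, with a log2 fold change of 0.04, and *Bhlhe40*, a repressor of MyoD activity, gave 82.6 and 86.9 CPM with 0.07. When 1 mouse was left out, the log2 fold change of *Id1* lay between −0.55 (without miR-501KO mouse 4) and −0.36 (without miR-501KO mouse 1), and its largest unadjusted p was 0.0261 (without miR-501KO mouse 5). Endothelial cells also express *Id1* and *Id3*, and the 12 endothelial markers summed to 869 to 1140 CPM in Pax7Cre and 886 to 1077 CPM in miR-501KO mice, with 11 of 12 log2 fold changes negative and a median of −0.06. Their part in the values of *Id1* and *Id3* was not tested.

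The higher inhibitor was *Hdac9*, a histone deacetylase that represses MEF2 proteins, with 9.62 ± 0.884 CPM in Pax7Cre and 11.7 ± 1.41 CPM in miR-501KO mice (SD, n = 5 each). Its log2 fold change was 0.28 with an interval of 0.05 to 0.50 (unadjusted p = 0.0216 and adjusted p = 1.00 from edgeR, exact permutation p = 0.0317). *Mybph*, a myosin binding protein gene among the early differentiation targets, had 158 ± 20.0 and 188 ± 20.8 CPM (SD, n = 5 each), with a log2 fold change of 0.25 and an interval of 0.02 to 0.48 (unadjusted p = 0.0363 and adjusted p = 1.00 from edgeR, exact permutation p = 0.0476). The genotypes overlapped for both genes. Leaving out miR-501KO mouse 2 raised the unadjusted p from edgeR to 0.0625 for *Hdac9* and to 0.0907 for *Mybph*.

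**Figure D5:**
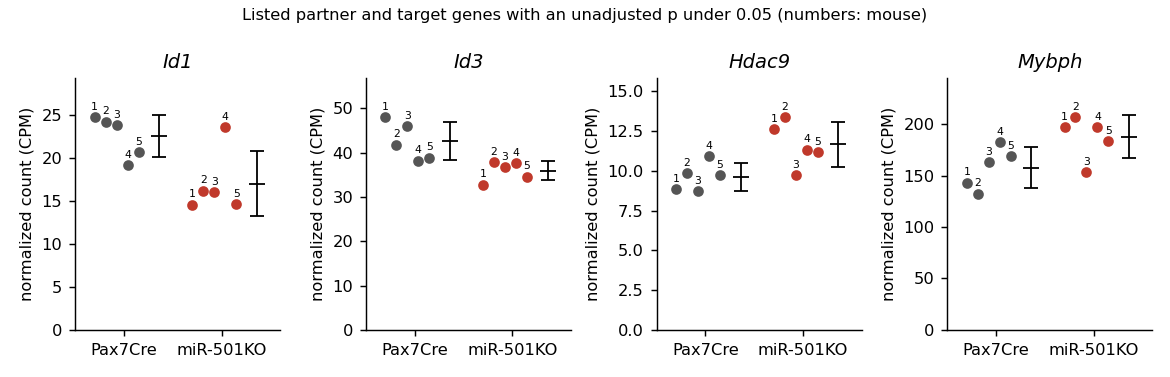
Normalized counts (CPM, vertical axes from 0) of the inhibitor and target genes with an unadjusted p under 0.05, in each Pax7Cre (grey) and miR-501KO (red) mouse. The genotypes are apart for *Id3*, and miR-501KO mouse 4 sits among the controls for *Id1*.

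The genes most alike to 3 of the factors across the 10 mice were sought by the Pearson correlation of log2 CPM over 14401 genes. For *Myog* they were *Kif20a*, *Cap1* and *Tacc3*, of which *Kif20a* and *Tacc3* encode proteins of the mitotic spindle. For *Myod1* they were *Ptpn1*, *Pygo2* and *1700017B05Rik*, and for *Pax7* they were *Arhgap17*, *Carmil2* and *Ntn1*. The r with *Pax7* was 0.93, 0.90 and 0.89 in this order. Without the 2 mice farthest from the median of *Pax7* it was 0.82, 0.88 and 0.64. *Carmil2* was low, at 1.03 to 2.33 CPM. *Kif20a*, the nearest to *Myog*, ranged from 17.5 to 40.2 CPM with both ends in Pax7Cre mice, and its r with *Myog* was 0.99 over the 10 mice and 0.91 without the 2 farthest. The mice share a tissue and a day, so the likeness is a description of these 10 libraries.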

How the data were processed

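The authors sequenced poly(A) RNA from 10 TA muscles as stranded 100-base single-end reads, aligned them with STAR and deposited raw counts per gene and mouse, with no normalization. Their processing notes name featureCounts and GRCm38.p5. The strand setting and the treatment of multimapping reads are not given in the sources used here. Groups came from the sample titles. Symbols and lengths came from GENCODE M21, which held 25664 of 25700 counted genes.

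Scaling used TMM factors (0.884 to 1.13) from edgeR 4.0.16 in R 4.3.3, filterByExpr (minimum count 10, minimum total 15) kept 14410 genes, and the quasi-likelihood test compared genotypes with Benjamini-Hochberg adjustment over all of them. CPM are the counts divided by the scaled library size, and log2 CPM used a prior count of 2. Exact two-sided permutation tests of CPM used scipy 1.17.1. The genotype test, the permutation test and the search for outlying mice were tried on simulated data. Differences planted for the genotype test were larger than those of the genes named here, so this does not show how well small differences are found. The other named genes are, from the lists of satellite cell markers, cofactors, inhibitors and early targets, the 3 most abundant per length and those with an unadjusted p under 0.05, together with the 3 genes most alike to *Pax7*, *Myod1* and *Myog*. *Id2* is the third most abundant inhibitor. The 9 genes, the lists and the tests were chosen with earlier results of these data known. Alternatives were other scaling, filters and tests (DESeq2 1.42.0 among them), a replicate block and leaving out mice. Mice of a genotype differed by more than counting noise (chi-square over degrees of freedom 9.51 or more).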

Additional observations from a re-analysis of the deposited data

Results flagged for a closer look

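In 3 of 72 groups of 5 mice searched, 1 mouse was farther from the others than Dixon's critical ratio of 0.71 allows, where chance alone gives about 3.6. *Id1* had 23.6 CPM in miR-501KO mouse 4, beside 14.6 to 16.2 CPM in the other miR-501KO mice. *Actc1* had 4012 CPM in Pax7Cre mouse 5, beside 2602 to 2795 CPM in the other Pax7Cre mice. The early differentiation targets summed to 9064 CPM in miR-501KO mouse 4, beside 10903 to 11609 CPM in the other miR-501KO mice. None of the 9 transcription factor genes was set apart in this way in either genotype.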

How the results depend on the processing

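None of the 9 genes reached an unadjusted p under 0.05, and no gene was called at an adjusted p under 0.05, under any of the alternatives tried. The numbers of genes at an unadjusted p under 0.05 depended on the setting. Higher genes, 55 in the reported setting, numbered 153 without a filter, 36 with at least 10 counts in every mouse and 87 with the mouse number as a replicate block, and between 39 and 267 when 1 mouse was left out (267 without Pax7Cre mouse 2, 228 without Pax7Cre mouse 4). Lower genes, 96 as reported, numbered 159 without a filter and 102 with the replicate block, and between 59 and 242 when 1 mouse was left out (59 without miR-501KO mouse 1, 186 and 242 without Pax7Cre mice 2 and 4 in turn). Without both Pax7Cre mice 2 and 4, an alternative chosen after seeing the data, 279 genes were higher and 252 lower. The labels do not call the mouse number a pairing, so the numbers were not taken as pairs. Mice of the same number correlated between −0.30 and 0.34 in their deviations, over 0.1 in 3 of 5 numbers. Of 10 mice, 5 correlated best with the mouse of their own number, so a pairing is not excluded. With the replicate block, *Mybph* had an unadjusted p of 0.0610.

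The direction of 7 of the 9 genes, all but *Pax3* and *Mef2c*, changed when some 1 mouse was left out. Those of *Pax3* and *Mef2c* did not, but their log2 fold changes moved from 0.31 to between 0.10 (without Pax7Cre mouse 3) and 0.51 (without miR-501KO mouse 3), and from 0.05 to between 0.006 (without Pax7Cre mouse 4) and 0.09 (without Pax7Cre mouse 5). The smallest unadjusted p for any of the 9 was 0.149, for *Myog* without Pax7Cre mouse 4. *Id1* and *Id3* kept an unadjusted p under 0.05 in 19 of 19 alternatives, *Hdac9* in 16 and *Mybph* in 12. These genes were singled out by that threshold in the reported setting, and the alternatives reuse the same mice, so the tally is no independent support. Depth limits *Pax3*, which was not tested with at least 10 counts in every mouse.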

Other observations

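Markers of the other cell types in regenerating muscle, of mature fibers and of cell division held 0 genes at an unadjusted p under 0.05 in edgeR, beside 1.05% of all genes tested. At an adjusted p under 0.05, 0% of all genes were called. Of 15 macrophage markers, 11 had a positive log2 fold change and the median was 0.02, with sums of 7806 to 10410.4 CPM in Pax7Cre and 7937 to 9515 CPM in miR-501KO mice. Of 12 markers of fibro-adipogenic progenitors, the fibroblast-like cells of muscle, 9 were negative with a median of −0.08. Of 8 Schwann cell markers, 5 were negative with a median of −0.09, and of 10 smooth muscle and pericyte markers 6 were positive with a median of 0.03. Of 7 B cell markers, 4 were tested and 3 were positive. Of 25 mature fiber markers, 18 were positive with a median of 0.04, and of 15 cell division markers, 11 were positive with a median of 0.05. Over all genes tested the median was −0.004.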
